A study of Cavia porcellus with 10 samples.

Results

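Tendon and cartilage are connective tissues whose strength comes from collagen fibrils embedded in proteoglycans and glycoproteins, and a small set of genes is best known from them. Of 8 such genes looked for by name in the guinea pig cervix, 6 had a row in the deposited expression table of 25028 genes. They are SCXB (ENSCPOG00000022112), the row for the transcription factor scleraxis, and TNMD (ENSCPOG00000010945), the gene of the tendon membrane protein tenomodulin. The others are CSPG5 (ENSCPOG00000010149), COMP (ENSCPOG00000025029), HAPLN1 (ENSCPOG00000011680) and MATN2 (ENSCPOG00000003062), which code for a proteoglycan, a glycoprotein and linkers of the matrix. ACAN and SOX9, the genes of the cartilage proteoglycan aggrecan and of the master regulator of cartilage, were not analysed here. SCXB and CSPG5 were chosen by their TPM values, picked because they are lower near term than at mid-pregnancy, so all their values between stages are given as a description without a test. COMP, HAPLN1, MATN2 and TNMD were named for what they are known to do, and were tested.

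The samples are the vaginal portion of the cervix, taken as whole tissue from Hartley guinea pigs, 1 library per animal. The groups were 3 non-pregnant animals in estrus (NP), sampled the day after the vaginal membrane had opened, 3 animals at mid-pregnancy (MT, 43.6 ± 0.5 days) and 4 in late pregnancy, before labor (LT, 65.2 ± 1.2 days). No animal carried a transgene or received a treatment according to the labels, and their ages were not given. The comparisons ask how transcript levels differ between estrus and mid-pregnancy and between mid-pregnancy and term.

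As background, scleraxis switches on the tendon program in embryos, and tenomodulin is among its targets. In cartilage, aggrecan binds the sugar chain hyaluronan, the link protein coded by HAPLN1 locks the pair together, and COMP and the matrilins bridge collagen fibrils and proteoglycans. The cervix is also mostly collagen and proteoglycan, and this matrix is known to be reorganised before birth, when the cervix must soften and open.

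Expression is given as TPM (a transcript abundance scaled to a fixed total per library), a unit that corrects for gene length and library size, so that levels of different genes can be set side by side. A gene was tested if its mean was at least 3 TPM in at least 1 stage, which 12645 genes reached. Each animal had between 18730665 and 27881572 reads counted on genes. Changes are differences of log2(TPM + 1), a scale on which low genes appear to change less than they do, and adjusted p-values are from limma over all genes tested, in 1 fit of the 10 animals. The median of all genes tested was -0.14 from NP to MT, -0.16 from MT to LT and -0.28 from NP to LT on this scale. With scaling by the median ratio these medians were -0.02, 0.00 and 0.00. Genes called at an adjusted p under 0.05 made up 18.5% of those tested from NP to MT, 29.4% from MT to LT and 53.1% from NP to LT. The share of them that was higher in the later stage was 33.9%, 22.9% and 21.1% in these comparisons, and 57.3%, 47.8% and 49.8% with scaling by the median ratio. NP replicate 1 stood apart in its markers of smooth muscle, with a summed level of 32130 TPM over 10 genes against 9043 and 11520 TPM in the other NP animals, and in those of squamous epithelium, with 3107 TPM over 6 genes against 1014 and 1016 TPM. MT replicate 1 stood apart in stromal markers, with 10030 TPM over 6 genes against 5286 and 5645, and in squamous ones, with 1283 TPM against 169.9 and 419.8. For the 6 genes with a row, results that rest on 1 of these animals are given with and without it.

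Defining markers of chondrocytes, the cells of cartilage, were low in sum. Of 8 such markers, COL2A1 has no row by that name and was not analysed here, and the other 7 together gave 4.874 to 12.17 TPM in NP, 11.5 to 22.38 in MT and 4.584 to 11.38 in LT. By contrast, markers of stromal fibroblasts summed to between 5286 and 10700 TPM over 6 genes. Most of the fibroblast sum came from COL1A1 and COL1A2, while COL2A1 was not analysed. The sums hold unlike genes and do not compare amounts of cells. COL9A2 and COL11A1, cartilage collagens outside the 8 markers, reached 28.62 and 37.92 TPM. The label of cartilage names what these genes are known from.

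SCXB, the scleraxis row, had the higher mean of the 2 picked genes in every stage. The 3 NP animals had 133.8, 30.4 and 15.03 TPM, the 3 MT animals 31.04, 26.09 and 22.75, and the 4 LT animals 2.435, 3.507, 1.357 and 3.074. Every LT animal was lower than every animal of the other stages, while the NP animals lay on both sides of the MT animals. Stage means (± SD) were 59.75 ± 64.6 TPM for the 3 NP animals, 26.63 ± 4.172 TPM for the 3 MT animals and 2.593 ± 0.9347 TPM for the 4 LT animals.

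From MT to LT the mean of SCXB was 10.27-fold lower, a log2 change of -2.97 (standard error 0.58). This is the 10th lowest value among all genes tested, a rank that the choice of the gene fixes in part. In LT, 2 of 4 animals were above 3 TPM and 2 below, so the gene lay around this limit rather than under it in all of them. The counts behind these values run from 21 to 1851 reads per animal. In whole tissue, fewer cells of a type and less RNA per cell cannot be told apart, and this holds for all values that follow.

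The NP level of SCXB depended on 1 animal. NP replicate 1 had 133.8 TPM, and the NP mean without it was 22.72 TPM. From NP to MT the log2 change was -0.57 (standard error 0.62) with this animal and 0.29 without it, and the NP and MT animals overlapped. From NP to LT it was -3.55 with it and -2.68 without it. NP replicate 1 also had the highest smooth muscle markers of its stage. LT animals with 19810 to 40640 TPM of those markers had at most 3.507 TPM of SCXB, and the part of muscle in the SCXB level was not tested. In the RefSeq annotation of a later guinea pig assembly than the one used for counting, Scx lies within the span of Bop1, a ribosome biogenesis gene. Whether reads were counted by strand is not given in the sources used here, and Bop1 has no row by that name, so what reads of the overlap did to the SCXB level is not known.

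**Figure D1:**
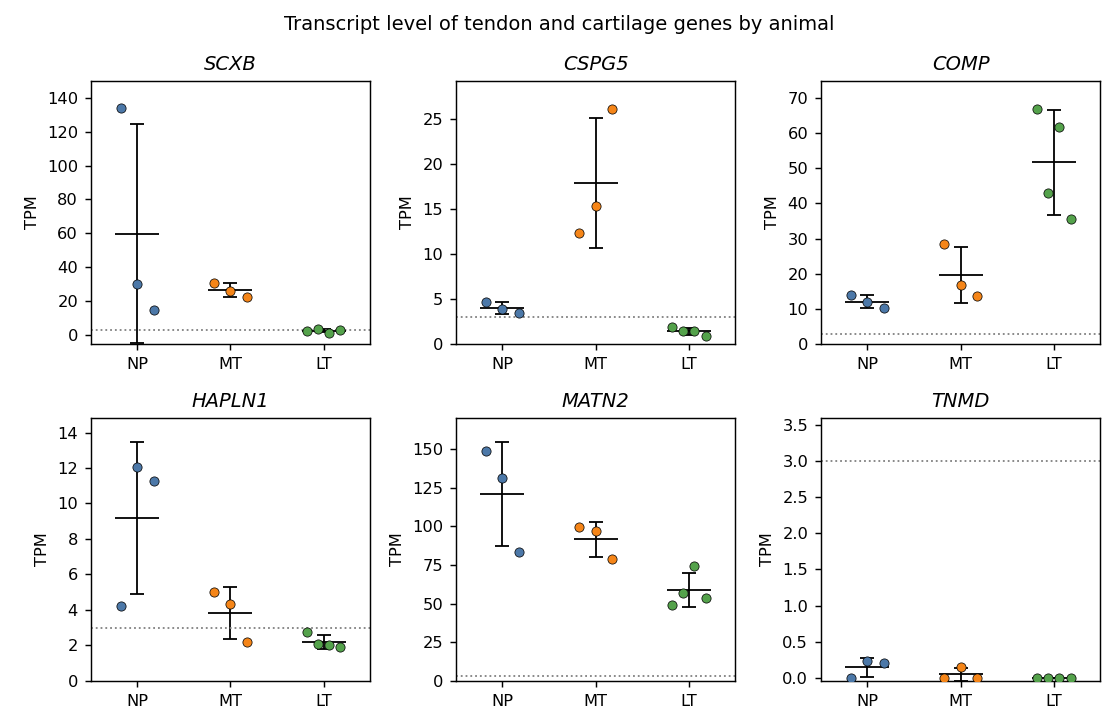
Transcript level in TPM (vertical axes, linear, each with its own range) of the 6 genes with a row in each animal, by stage (NP, MT, LT; points are animals, bars the mean and its SD, the dotted line 3 TPM). SCXB and CSPG5 are lowest in LT and were picked for it. COMP is highest in the 4 LT animals, between 35.58 and 66.73 TPM, while HAPLN1 and MATN2 have their lowest means there and TNMD is at most 0.2287 TPM.

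TNMD codes for tenomodulin, a type II membrane protein of mature tendon cells. No read was counted in 7 of the 10 animals, and the 3 others gave 8 reads in all. These were NP replicates 2 and 3, at 0.2287 and 0.2036 TPM, and MT replicate 2, at 0.1556 TPM. In the 4 LT animals it was listed at 0, and 3 reads, the limit that a count of 0 allows, would be worth between 0.1496 and 0.1618 TPM in these libraries. A difference between stages was therefore not detectable at this depth, and such limits cover counting error alone. Exact permutation tests on square-root TPM gave p = 0.40 from NP to MT, 0.43 from MT to LT and 0.14 from NP to LT.

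LECT1 (ENSCPOG00000006519) codes for chondromodulin, the closest relative of tenomodulin and known from cartilage and other tissues without vessels. Its NP animals had 0.4316, 0.2357 and 0.1574 TPM, its MT animals 12.33, 17.8 and 8.76, and its LT animals 0.8722, 2.055, 5.785 and 2.085. The 3 stages did not overlap, with MT highest and NP lowest. The log2 changes were 3.41 from NP to MT (standard error 0.42) and -2.03 from MT to LT (standard error 0.39), and its level was higher in LT than in NP by 1.38 (limma adjusted p = 0.014). LECT1 passed the filter through MT alone, so the filter in part fixed the direction of its changes to and from MT, which are a description. It accounts for most of the chondrocyte marker sum in MT. Of the other markers, MATN1, MATN3, EPYC and CYTL1 were all under the filter, with a highest value of 4.293 TPM for EPYC in 1 LT animal. COL9A1 and COL11A2 had lower means in MT than in NP, 0.9802 and 2.767 TPM against 3.984 and 3.251. Both passed the filter through NP alone, so these values are a description as well.

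CSPG5, the other gene picked for its low level near term, codes for a chondroitin sulfate proteoglycan that spans the membrane and is best known from neurons. The NP animals had 4.729, 3.934 and 3.436 TPM, the MT animals 12.36, 15.34 and 26.1, and the LT animals 1.857, 1.514, 1.433 and 0.8667. No animal of one stage overlapped an animal of another, and MT was the highest stage. The means (± SD, with 3, 3 and 4 animals) were 4.033 ± 0.6523, 17.93 ± 7.231 and 1.418 ± 0.4107 TPM for NP, MT and LT. MT replicate 3 was the highest of its stage, and without it the MT mean was 13.85 TPM.

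The log2 changes of CSPG5 were 1.85 (standard error 0.26) from NP to MT, -2.92 (standard error 0.25) from MT to LT and -1.07 (standard error 0.25) from NP to LT. CSPG5 was thus highest at mid-pregnancy, whereas the NP and MT animals overlapped for SCXB. Summed markers of Schwann cells and glia, 10 genes with a row, were 55.12 to 70.33 TPM in NP, 45.01 to 62.65 in MT and 27.34 to 41.37 in LT. These were thus no higher in MT than in NP, and were lowest in LT like CSPG5. The part of such cells in the CSPG5 level was not tested. The related brain proteoglycans NCAN and BCAN reached at most 0.08846 and 2.594 TPM, and CSPG4, a proteoglycan of pericytes and glial precursors, had means of 16.01, 13.04 and 11.55 TPM in NP, MT and LT.

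Of the 3 tested genes that were not picked for their pattern, COMP, HAPLN1 and MATN2, none was called from NP to MT by limma, where 18.5% of all genes were called (12.2% lower and 6.27% higher). At an unadjusted p under 0.05 there was 1, HAPLN1, which DESeq2 on the counts also called, while edgeR called none. Between MT and LT 2 were called, against 29.4% of all genes (22.7% lower and 6.73% higher), and between NP and LT all 3 were called, against 53.1% (41.9% lower and 11.2% higher). The animals did not overlap for 0, 2 and 3 of these genes in the same order of comparisons, where this held for 34.9%, 46.3% and 52.4% of all genes. Of all genes, 23.5%, 35.5% and 40.6% did not overlap with the later stage lower, and 11.4%, 10.8% and 11.8% with the later stage higher. Against shares of this size the counts alone are no result about these genes. They also moved apart, since COMP rose while HAPLN1 and MATN2 fell.

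COMP codes for cartilage oligomeric matrix protein, also called thrombospondin 5, a pentamer that binds collagens and is abundant in tendon and cartilage. The NP animals had 14.08, 11.91 and 10.3 TPM, the MT animals 28.59, 16.78 and 13.69, and the LT animals 66.73, 42.8, 61.77 and 35.58. Each LT animal was above each animal of the other stages, and NP and MT animals overlapped. The means (± SD, with 3, 3 and 4 animals) were 12.1 ± 1.894, 19.68 ± 7.864 and 51.72 ± 14.9 TPM.

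Without MT replicate 1 the MT mean was 15.23 TPM. The level of COMP was 2.627-fold higher in LT than in MT and 4.275-fold higher than in NP. On the log2 scale it rose by 1.37 from MT to LT (standard error 0.27, limma adjusted p = 0.00668) and by 1.97 from NP to LT (standard error 0.27, limma adjusted p = 0.0004). Exact permutation tests gave p = 0.0286 for both, the smallest that 3 animals against 4 allow. From NP to MT the change was 0.60 (limma adjusted p = 0.167, exact permutation p = 0.20), and 3 animals against 3 cannot give an exact p below 0.1. Without MT replicate 1 this change was 0.31 (limma adjusted p = 0.4345). Genes called higher made up 6.73% of those tested from MT to LT and 11.2% from NP to LT. COMP moved from the 26.1th percentile of tested genes by mean level in NP to the 76.5th in LT.

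The sum of smooth muscle markers was 13420 to 20160 TPM in MT and 19810 to 40640 in LT, with overlap, and 1 of its 10 genes was called higher from MT to LT. NP replicate 1 had 32130 TPM of these markers and 14.08 TPM of COMP, less than any LT animal. Squamous epithelial markers were 169.9 to 1283 TPM in MT and 1514 to 3013 in LT, and leukocyte markers, 9 genes with a row, 99.39 to 113.5 and 136.3 to 274.7 TPM, in both cases without overlap. NP replicate 1 had 3107 TPM of the squamous markers. From MT to LT 1 of 6 tested squamous genes was called higher, KRT14, with means of 548.1 and 2237 TPM. It made up most of that sum, while IVL had means of 2.551 and 0.5282 TPM. Of 7 tested leukocyte genes 2 were called higher, CD14 and CD163. PTPRC and CD3E had lower means in LT, 6.89 and 2.015 TPM against 9.622 and 5.394 in MT. Stromal markers were 5286 to 10030 TPM in MT and 6138 to 9234 in LT. The animal with the highest stromal sum of its stage, at 10700, 10030 and 9234 TPM in NP, MT and LT, was in each stage also the one with the highest COMP. The part of the tissue's makeup in the rise of COMP was not tested beyond these values.

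Among the other thrombospondins, THBS2 and THBS4 were also higher in LT. Both are matrix proteins that bind collagen or cells, and THBS4 is known from tendon and muscle. THBS2 had means of 49.07, 51.27 and 114.6 TPM in NP, MT and LT, with LT animals from 81.16 to 135.7 TPM. It rose from MT to LT by 1.27 on the log2 scale (standard error 0.38, limma adjusted p = 0.0312), and THBS4 by 1.07 (standard error 0.33, limma adjusted p = 0.0352). The MT to LT calls of these genes were lost in 7 and 6 of 17 alternatives, with adjusted p of up to 0.106 and 0.14. Values of THBS1 and THBS3 were looked up after the other results were known, and are not tested here. THBS1, an activator of TGF-beta, had means of 135, 79.07 and 63.48 TPM, and THBS3 had 18.4, 8.321 and 16.98.

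HAPLN1 codes for the link protein that fastens aggrecan or versican to hyaluronan. The NP animals had 4.236, 12.07 and 11.24 TPM, the MT animals 4.989, 4.313 and 2.171, and the LT animals 2.783, 2.086, 2.038 and 1.889. NP replicate 1 was as low as the MT animals, and MT replicate 3 lay within the range of LT. Means (± SD, with 3, 3 and 4 animals) were 9.181 ± 4.302 TPM at the NP stage, 3.824 ± 1.471 at MT and 2.199 ± 0.3981 at LT.

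HAPLN1 fell by 1.57 on the log2 scale from NP to LT (standard error 0.33, limma adjusted p = 0.00346, exact permutation p = 0.0286), a 4.175-fold lower mean with no overlap between the animals. From NP to MT the change was -1.02 (standard error 0.36, limma adjusted p = 0.0732) and from MT to LT -0.55 (limma adjusted p = 0.232). Without NP replicate 1 the NP mean was 11.65 TPM, and the change from NP to MT was -1.44 with a limma adjusted p of 0.00582. The values rest on 48 to 227 reads per animal and 995 in all, the lowest total of the 5 genes that passed the filter. The other link proteins were low, with HAPLN2 and HAPLN4 at no more than 0.08956 and 0.5837 TPM and HAPLN3 at means of 2.97, 2.165 and 2.698 TPM.

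VCAN, the gene of versican, which link protein also anchors, had means of 67.59, 25.61 and 41.28 TPM. It fell by 1.28 on the log2 scale from NP to MT (limma adjusted p = 0.0153), and its change from MT to LT did not pass the threshold (limma adjusted p = 0.101), although every LT animal, at 31.17 to 52.47 TPM, was above every MT animal, at 22.76 to 28.82. HAPLN1 and VCAN are neighbours in the RefSeq annotation of the later assembly.

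MATN2 codes for matrilin 2, an adaptor of the filamentous matrix that, unlike matrilins 1 and 3, is found outside cartilage. It had the highest mean of the 6 genes in every stage, with 148.6, 131.0 and 83.32 TPM in NP, 99.32, 97.13 and 78.55 in MT, and 49.18, 56.85, 74.54 and 53.76 in LT. All LT animals were below all NP and MT animals, by a small margin between 78.55 and 74.54 TPM. In the same order, means (± SD) of the 3, 3 and 4 animals were 121 ± 33.76, 91.67 ± 11.41 and 58.58 ± 11.09 TPM.

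From NP to LT MATN2 fell by 1.01 on the log2 scale (standard error 0.20, limma adjusted p = 0.00258, exact permutation p = 0.0286), a 2.065-fold lower mean. From MT to LT it fell by 0.65 (standard error 0.20, limma adjusted p = 0.038), but the exact permutation p was 0.0571 and the call was lost in 11 of 17 alternatives. Among them were scaling by the median ratio (limma adjusted p = 0.143) and edgeR on the counts (adjusted p = 0.155). From NP to MT the change was -0.36 (limma adjusted p = 0.259). It was -0.19 without NP replicate 1 (limma adjusted p = 0.5105) and -0.61 without NP replicate 3 (limma adjusted p = 0.0527). Endothelial markers were also lower in LT, with 7 of 8 tested genes called lower from MT to LT and a sum of 71.5 to 111.8 TPM against 126.5 to 186.3 in MT. So were those of Schwann cells and glia, with 2 of 4 tested genes called lower. The part of these cells in the fall of MATN2 was not tested. Matrilins 1 and 3, which are best known from cartilage, reached at most 0.6732 and 0.3492 TPM, and MATN4 had no read in MT and LT and at most 0.2028 TPM in NP.

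**Figure D2:**
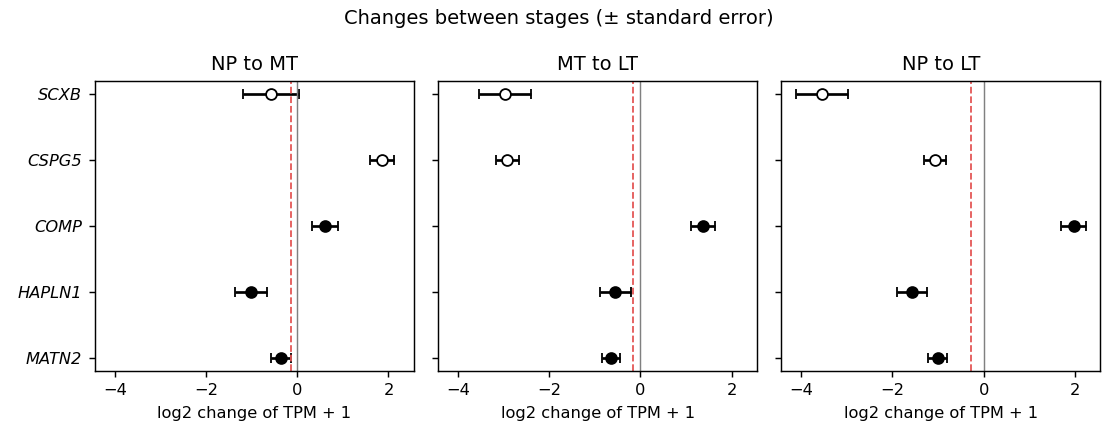
Log2 changes of TPM + 1 (horizontal axis) with their standard errors for the 5 genes that passed the filter, 1 panel per pair of stages (open symbols are the picked genes SCXB and CSPG5, which carry no test, and the dashed line is the median of all genes tested). COMP lies at 1.97 from NP to LT, opposite to HAPLN1 at -1.57 and MATN2 at -1.01, and CSPG5 changes sign between the first pair of stages, at 1.85, and the second, at -2.92.

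A one-way F statistic over the 3 stages, permuted exactly on square-root TPM, gave p = 0.00286 for COMP, 0.00857 for MATN2, 0.02 for HAPLN1 and 0.1 for TNMD. In all, 12 exact tests between pairs of stages and 4 over the 3 stages were computed.

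The order of the genes by level changed with stage. In NP the means ran from MATN2 at 121 TPM through SCXB at 59.75, COMP at 12.1 and HAPLN1 at 9.181 to CSPG5 at 4.033. The NP animals overlapped between MATN2 and SCXB, between COMP and HAPLN1 and between HAPLN1 and CSPG5, so that the order of these neighbours was within the spread. In MT the order was MATN2, SCXB at 26.63, COMP at 19.68, CSPG5 at 17.93 and HAPLN1 at 3.824, and SCXB, COMP and CSPG5 overlapped. In LT MATN2 at 58.58 and COMP at 51.72 led with overlapping animals, and SCXB at 2.593, HAPLN1 at 2.199 and CSPG5 at 1.418 TPM formed a low group. SCXB and COMP exchanged places, since COMP was below SCXB in every NP animal and above it in every LT animal. SCXB and CSPG5 were picked for their low level near term. The choice thus fixed in part their place in the low group and this exchange, which are a description.

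Across the 10 animals, Pearson's r of log2(TPM + 1) was 0.883 between SCXB and MATN2, -0.804 between SCXB and COMP and -0.714 between COMP and MATN2. CSPG5 and HAPLN1 had r = 0.166, and SCXB and CSPG5 had r = 0.646. The animals share stages that differ in all 5 genes, so these values describe how the stages are ordered and carry no test. Among the named genes whose pattern over the 10 animals was most like that of COMP were PCOLCE, an enhancer of procollagen processing, with r = 0.957, and LOXL1, an enzyme that cross-links elastin, with r = 0.934. PCOLCE had means of 209.6, 273.3 and 418.3 TPM in NP, MT and LT, and LOXL1 79.77, 84.94 and 121.1.

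For SCXB the most alike were PCYOX1 with r = 0.976, FKBP1B with r = 0.975 and KIAA0754 with r = 0.967. For CSPG5 they included ZNF469 with r = 0.965 and C0JKE5_CAVPO with r = 0.956. For HAPLN1 they were TRIM46 with r = 0.985, INVS with r = 0.98 and RFWD3 with r = 0.98, and for MATN2 DACT3 with r = 0.972, PAQR6 with r = 0.942 and B3GNT5 with r = 0.942. These are among the highest of all genes tested and are a description.

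Other genes of tendon and cartilage were grouped in 5 lists, which also hold genes that the study singled out in these same animals, among them COL9A2, SPOCK2, VCAN, FMOD, BGN, TIMP3, ADAMTS1, ADAMTS8, COL1A1 and COL1A2. Their direction is therefore not independent evidence in the counts of their lists. The first list is the matrix of cartilage. Of 27 genes listed, 25 had a row and 13 were tested. From NP to LT 10 of these fell and 3 rose, where 41.9% of all genes tested were called lower and 11.2% higher, and the median change was -1.56 against -0.28 over all genes. Between MT and LT 5 fell and 2 rose (22.7% and 6.73% of all genes), with a median of -0.72 against -0.16, and between NP and MT 3 fell and 1 rose (12.2% and 6.27% of all genes). Of the 13, 6 passed the filter through 1 stage alone, against 5.21% of all genes tested: COL9A1, COL11A2 and MIA through NP, LECT1 through MT, and PRG4 and SCRG1 through LT. The filter in part fixed the direction of these 6, so the counts and medians of this list are a description and support nothing. The counts of falling genes, 10 from NP to LT and 5 from MT to LT, moved by less than 1.5 times in every alternative. The others did not hold as well: 0 to 2 rose from MT to LT, 1 to 5 fell from NP to MT (5 without NP replicate 1), and 1 rose from NP to LT without NP replicate 3.

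The genes that fell from MT to LT include collagens of cartilage fibrils. COL9A2, a chain of collagen IX that coats collagen II fibrils, had 24.89, 12.22 and 14.5 TPM in NP, 28.62, 19.56 and 9.499 in MT, and 3.23, 2.807, 2.508 and 1.611 in LT. All LT animals were lower than all others, a log2 change of -2.41 from MT (standard error 0.35, limma adjusted p = 0.00261). The remaining genes of the 5, COL27A1 and ITGBL1, are named after their values were seen. COL27A1, a fibrillar collagen of cartilage, had means of 23.08, 28.74 and 6.715 TPM and fell by 1.91 (limma adjusted p = 0.00162). FRZB, a secreted inhibitor of Wnt signals known from joints, had 57.43, 60.75 and 48.29 TPM in NP, 24.8, 76.62 and 44.28 in MT, and 16.65, 6.915, 4.77 and 3.955 in LT. It fell by 2.50 from MT to LT (standard error 0.45, limma adjusted p = 0.00469), with no overlap. ITGBL1, a secreted integrin-like protein, fell from a mean of 7.023 to 1.692 TPM (log2 change -1.59, limma adjusted p = 0.0393).

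Other cartilage matrix genes were lower at mid-pregnancy than in NP. COL11A1, a collagen that seeds fibrils, had means of 21.66, 4.06 and 2.546 TPM and fell by 2.01 from NP to MT (standard error 0.39, limma adjusted p = 0.00776). NP replicate 1 was highest at 37.92 TPM, and the call held without it. COL9A1 and MIA had log2 changes of -1.25 and -1.37 from NP means of 3.984 and 5.144 TPM, and their calls were lost in 11 of 16 and 8 of 17 alternatives. These values are a description, since both passed the filter through NP alone. The highest levels on this list were those of MGP, an inhibitor of mineral deposits, with means of 2225, 627.7 and 661.9 TPM, and of FN1, the gene of fibronectin, with 1180, 757.1 and 553.9 TPM. NP replicate 1 had 587.2 TPM of MGP, against 2593 and 3495 TPM in the other NP animals. The call of MGP from NP to LT (limma adjusted p = 0.0459) was lost in 10 of 17 alternatives. The 2 genes that rose from MT to LT were PRG4, the lubricating proteoglycan of joint surfaces, and SCRG1, a small secreted protein found in differentiating cartilage. PRG4 had 0.3501, 0.8911 and 0.2185 TPM in MT and 0.7521, 5.809, 13.24 and 6.797 in LT, so that the animals overlapped. SCRG1 had 1.827, 1.968, 12.14 and 14.11 TPM in LT and at most 1.048 in MT. The LT animals with the highest SCRG1, replicates 3 and 4, also had the highest smooth muscle sums, 39230 and 40640 TPM against 19810 and 19850 in the others, and the part of muscle in this was not tested. Their log2 changes of 2.05 and 2.24 were past the threshold in 10 and 12 of 17 alternatives. Both passed the filter through LT alone, the stage where they are high, so their rise is a description.

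**Figure D3:**
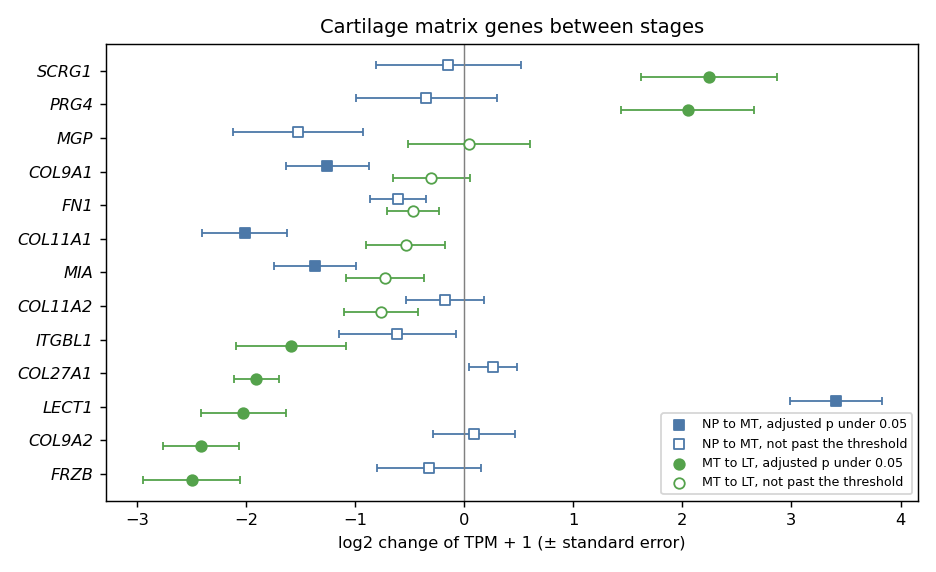
Log2 change of TPM + 1 with its standard error (horizontal axis) for the 13 tested cartilage matrix genes, from NP to MT and from MT to LT (filled symbols have a limma adjusted p under 0.05). COL9A1, COL11A2, MIA, LECT1, PRG4 and SCRG1 passed the filter through 1 stage alone, so their symbols, filled or open, are a description. LECT1 lies at 3.41 in the first comparison and at -2.03 in the second, and COL9A2 and FRZB have standard errors that reach 0 in the first and lie at -2.41 and -2.50 in the second.

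Of the regulators of cartilage, 22 were listed, 21 had a row and 16 were tested. From MT to LT 9 fell and none rose by limma (1 had a higher level at an unadjusted p under 0.05, CHRDL1, named after its value was seen, which DESeq2 also called and edgeR did not), against 22.7% of all genes called lower and 6.73% higher. From NP to MT 3 rose and 1 fell (6.27% and 12.2% of all genes), and from NP to LT 2 rose and 11 fell (11.2% and 41.9%). Of the 11, RUNX3 and BMPR1B passed the filter through NP alone. The count of 9 moved by less than 1.5 times in every alternative. The median was -0.57, and -0.41 with scaling by the median ratio. Markers of other cells fell at the same step, with 7 of 8 endothelial genes called lower (median -0.84) and 2 of 4 of Schwann cells and glia. The stromal receptor genes PDGFRA and PDGFRB also fell (limma adjusted p = 0.00187 and 0.0324), while the stromal list as a whole had 2 lower and 1 higher of 6. Their part in the falls of cartilage regulators and of cartilage matrix genes was not tested. PTH1R, the receptor of parathyroid hormone-related protein, which holds back the maturation of chondrocytes, had 28.5, 33.91 and 31.1 TPM in NP, 19.08, 27.92 and 20.06 in MT, and 7.651, 5.319, 5.181 and 5.461 in LT. It fell by 1.75 from MT to LT (standard error 0.16, limma adjusted p = 0.00162), with LT animals below all others.

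Partners of SOX9 were also on the list. SOX5, which acts together with SOX9 and SOX6, went from 3.14 to 1.518 TPM (log2 change -0.71, limma adjusted p = 0.0255, lost in 6 of 17 alternatives). SOX6 had means of 5.424, 4.771 and 3.895 TPM and was not called (limma adjusted p = 0.369 from MT to LT). ARID5B, a coactivator of SOX9, fell in both steps, by 0.66 from NP to MT and by 0.89 from MT to LT (limma adjusted p = 0.0178 and 0.00361, the first lost in 2 of 17 alternatives), through means of 70.88, 44.39 and 23.5 TPM. GLI3, a mediator of hedgehog signals, fell by 0.87 (limma adjusted p = 0.00572) and MEF2C, which drives chondrocyte enlargement, by 0.63 (limma adjusted p = 0.00979) from MT to LT. RUNX2, a regulator of bone and maturing cartilage, rose from 39.34 to 61.41 TPM from NP to MT and fell to 40.17 TPM in LT (limma adjusted p = 0.0127 and 0.00888). RUNX1 and FGFR3 rose from NP to MT by 1.08 and 0.81 (limma adjusted p = 0.0102 and 0.00663).

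The matrix of tendon and ligament moved in both directions. Of 25 genes listed 22 were tested, and 4 fell and 4 rose from MT to LT, 3 fell and 2 rose from NP to MT, and 7 fell and 2 rose from NP to LT. Over all genes tested, 22.7% were called lower and 6.73% higher from MT to LT, and 12.2% and 6.27% from NP to MT. From NP to LT these shares were 41.9% and 11.2%. With scaling by the median ratio 5 of the 22 fell from NP to LT, beside 3157 of 12645 over all genes. With so few listed genes, a gap in share is not read as a difference. Medians were -0.20, -0.08 and -0.21 from NP to MT, MT to LT and NP to LT, within 0.1 of those of all genes. Scaling by the median ratio turned the last 2 to 0.09 and 0.08 and gave 5 genes higher from NP to LT. The 4 that rose from MT to LT were 1 to 5 over the alternatives, with 1 without MT replicate 2, MT replicate 3, LT replicate 3 or LT replicate 4 and with no filter. Without NP replicate 1, 7 genes fell from MT to LT and 6 from NP to MT. The main fibril collagens were level, with means of 5401, 4669 and 4805 TPM for COL1A1 and 1934, 1973 and 2043 for COL1A2, and neither was called in any comparison.

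ABI3BP, a matrix protein that binds collagen, had the mid-pregnancy peak that CSPG5 also had. It had 59.8, 57.79 and 61.09 TPM in NP, 153.6, 218.3 and 197.7 in MT, and 59.25, 56.22, 71.13 and 52.11 in LT. It rose by 1.64 (standard error 0.14, limma adjusted p = 0.000212) and fell by 1.65 (standard error 0.13, limma adjusted p = 0.00157). FMOD, the gene of fibromodulin, a regulator of fibril width in tendon, rose by 1.17 (limma adjusted p = 0.00331) through means of 303.1, 674.8 and 369.7 TPM, and fell by 0.88 from MT to LT (limma adjusted p = 0.00662).

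Other genes of this list fell at one of the steps. POSTN, the matrix protein periostin, which passed the filter through NP alone, had 4.562, 9.761 and 19.8 TPM in NP and at most 0.4667 in any pregnant animal, a log2 change of -3.14 from NP to MT that is a description, since the filter in part fixed its direction. ASPN, a small leucine-rich proteoglycan, fell by 1.22 at the same step (limma adjusted p = 0.00501). COL12A1, a collagen on the surface of fibrils, fell from 430.9 to 140.9 TPM from MT to LT (log2 change -1.72, standard error 0.34, limma adjusted p = 0.00695). TPPP3, a marker of tendon sheath cells, was higher in LT by 1.75 (limma adjusted p = 0.0443), a call lost in 8 of 17 alternatives. LUM, the gene of lumican, rose from 126.3 to 242.8 TPM from MT to LT (log2 change 0.91, limma adjusted p = 0.00761). Its fall from NP to MT was lost in 12 of 17 alternatives.

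**Figure D4:**
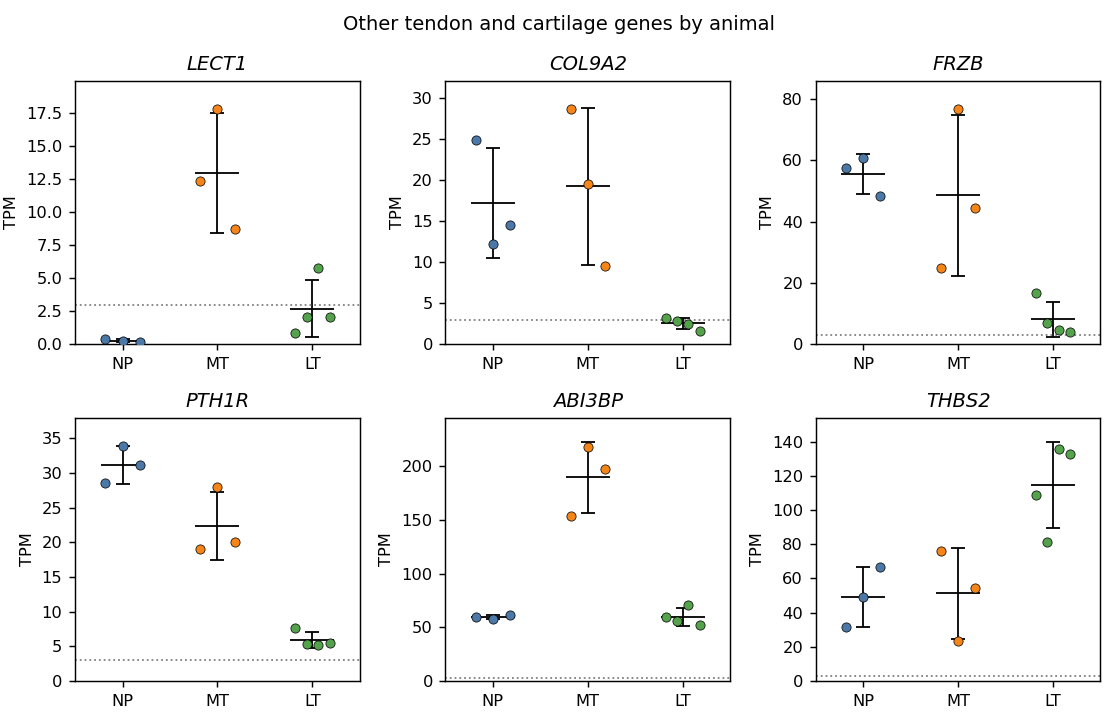
Transcript level in TPM (vertical axes, linear, each with its own range) of 6 further tendon and cartilage genes in each animal by stage (points are animals, bars the mean and its SD, the dotted line 3 TPM). LECT1 and ABI3BP are highest in MT, COL9A2, FRZB and PTH1R are lowest in LT, and THBS2 is highest in LT.

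Among 16 regulators and signals of tendon, 10 were tested, and 3 fell and 1 rose from NP to MT, 2 fell and 1 rose from MT to LT, and 4 fell and 2 rose from NP to LT. The falls of 4 of 10 from NP to LT and of 2 of 10 from MT to LT were near the shares over all genes, 41.9% and 22.7%, and 12.2% of all genes fell from NP to MT. Genes called higher made up 6.27%, 6.73% and 11.2% of all genes from NP to MT, MT to LT and NP to LT. Of the 10, 3 passed the filter through 1 stage alone, EYA1, GDF5 and FGF18. The median changes were -0.30, 0.14 and -0.36. With scaling by the median ratio they were -0.19, 0.27 and -0.07, with 3, 2 and 4 genes called higher and 3, 1 and 3 lower. Apart from the lower counts from NP to MT and from NP to LT, each of these counts moved by more than 1.5 times in some alternative. MKX, a factor that works beside scleraxis in tendon, stayed at or under 0.2283 TPM in every animal. EGR1, which is induced by stretch, had 69.3, 87.31 and 88.09 TPM in NP and 28.66, 21.9 and 27.25 in MT, a log2 change of -1.62 (limma adjusted p = 0.00395). FGF18 had means of 5.427 and 0.4259 TPM in NP and MT (log2 change -2.11), which is a description because it passed the filter through NP alone, and EYA2 rose by 1.05 (limma adjusted p = 0.0025). Of the TGF-beta pathway, which induces scleraxis, the ligand TGFB2 fell from NP to MT by 0.77 (limma adjusted p = 0.0013) and from MT to LT by 0.42 (limma adjusted p = 0.0102), the latter a call lost with scaling by the median ratio, edgeR and DESeq2, and the signal carrier SMAD3 fell from MT to LT by 0.69 (limma adjusted p = 0.0066). The receptor TGFBR2 had means of 100.4, 111.5 and 98.18 TPM. SIX2 rose by 0.79 from MT to LT (limma adjusted p = 0.0402), a call lost in 9 of 17 alternatives.

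The genes of proteoglycan aggregates and their turnover had no common direction, with 15 of 22 tested. From MT to LT 2 fell and 2 rose, from NP to MT 2 fell and 1 rose, and from NP to LT 4 fell and 2 rose, with medians of 0.24, -0.49 and 0.00 in this order. Scaling by the median ratio gave medians of 0.40, -0.37 and 0.27. The 2 that rose from NP to LT were 1 to 4 over the alternatives. The shares of all genes called lower were 22.7%, 12.2% and 41.9% in this order. With scaling by the median ratio 2 and 3 of the 15 fell from MT to LT and from NP to LT. Over all 12645 genes, 1939 and 3157 were called lower with this scaling. With so few listed genes, a gap to these shares is not read as a difference. The shares of all genes called higher were 6.73%, 6.27% and 11.2% in the order MT to LT, NP to MT and NP to LT. The 2 that rose from MT to LT were 0 to 4 over the alternatives, with 0 without MT replicates 1 or 2 or LT replicates 3 or 4, and the 1 that rose from NP to MT was 1 to 4, with 4 without NP replicate 1. SPOCK2, a secreted proteoglycan, had 92.77, 153.9 and 118.5 TPM in MT and 10.07, 10.73, 8.062 and 5.289 in LT, a log2 change of -3.70 (limma adjusted p = 0.00162) with no overlap. TIMP3, an inhibitor of the proteases that cleave aggrecan and versican, fell by 0.96 from MT to LT (limma adjusted p = 0.0033). ADAMTS15, one of these proteases, rose from 13.49 to 53.84 TPM from NP to MT (log2 change 1.91, standard error 0.27, limma adjusted p = 0.00191). ADAMTS8 rose from 2.107 to 14.13 TPM from MT to LT (log2 change 2.05, limma adjusted p = 0.0324), a call lost in 9 of 17 alternatives, and ADAMTS1 had means of 112.4, 141.6 and 181 TPM.

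The list also holds the enzymes that make hyaluronan, the chain to which HAPLN1 binds. HAS3 had means of 3.44, 0.9714 and 0.4952 TPM, a log2 change of -1.17 from NP to MT that is a description, since it passed the filter through NP alone. HAS2 had means of 3.519, 2.036 and 4.903 TPM, and rose by 0.93 from MT to LT (limma adjusted p = 0.0275), a call lost in 5 of 17 alternatives. HAS2 was not called from NP to MT (limma adjusted p = 0.163). HAS1 was under the filter, with means of 0.1843, 0.4846 and 2.427 TPM.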

How the data were processed

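RNA of whole cervix was sequenced by the authors as strand-specific poly(A) libraries (Illumina, single reads, CASAVA 1.8.2, per the labels). The authors mapped the reads to the guinea pig genome (cavPor3) with TopHat2, counted them per Ensembl gene with HTSeq 0.5.4p1 and deposited the read counts and the TPM values derived from them. A TPM value also moves with the level of all other genes of its library. The 8 genes were matched by gene name, and the genes, lists and tests were chosen with earlier results of these data known.

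TPM values were analysed as log2(TPM + 1) with limma 3.58.1 in R 4.3.3, with an intensity trend, 1 fit over the 10 animals with stage as the only term, and Benjamini-Hochberg adjustment over the 12645 genes whose mean reached 3 TPM in any stage. All tests were two-sided with a threshold of 0.05. Single genes were also compared by exact permutation of the difference of means and of the one-way F statistic on square-root TPM (scipy 1.17.1). The 17 alternatives were square-root TPM, a pseudocount of 0.1, no filter, scaling by the median ratio, edgeR 4.0.16 (quasi-likelihood, TMM) and DESeq2 1.42.0 on the deposited counts, a block for the replicate number, and each of the 10 animals left out. The fits were tested on simulated data.

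Of the listed genes, those named are the ones called from NP to MT or from MT to LT, at most 5 per list and comparison by size of change, and the 2 of highest level per list. For each gene that passed the filter, the 3 genes of highest correlation were taken, of which 2 are not reported here. Relatives of the HAPLN, MATN, CSPG and thrombospondin families, SOX6 and the markers of other cells are given as values beside them. MKX and HAS1, both under the filter, also fall outside this rule and are given as values. No genome of the build used for counting was used here, so no coordinates are given. Animals are separate samples per the labels, and depth sets the precision: 3 reads are worth between 0.04254 TPM in MATN2 and 0.3053 TPM in SCXB.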

Additional observations from a re-analysis of the deposited data

Results flagged for a closer look

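The 4 LT animals were examined for a value far from the others in 49 genes, SCXB, CSPG5, COMP, HAPLN1, MATN2 and the 44 listed genes that were named, and 2 were found, where chance gives about 1 in 20 groups. PTH1R had 7.651 TPM in LT replicate 1 and 5.181 to 5.461 in the other LT animals, a gap of 0.887 of the whole range. TGFBR2 had 107.2 TPM in the same animal and 94.59 to 95.6 in the others, a gap of 0.92 of the range. None of the genes SCXB, CSPG5, COMP, HAPLN1 and MATN2 had such an animal in LT, TNMD was at 0 in all 4, and the groups of 3 were not examined.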

How the results depend on the processing

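The rise of COMP from MT to LT and from NP to LT, and the falls of HAPLN1 and MATN2 from NP to LT, were called in all 17 alternatives, with adjusted p of at most 0.032, 0.0026, 0.0234 and 0.0284. The fall of MATN2 from MT to LT was lost with square-root TPM (-0.65, adjusted p = 0.0616), no filter (-0.65, 0.056), scaling by the median ratio (-0.48, 0.143), edgeR (-0.47, 0.155), DESeq2 (-0.47, 0.123) and the replicate block (-0.61, 0.128), and without MT replicates 1 or 2 or LT replicates 1, 2 or 4. Leaving out each animal gave -0.77 to -0.57. HAPLN1 from NP to MT was called by DESeq2 (-1.11, adjusted p = 0.0315) and without NP replicate 1, with -1.44 to -0.74 over the animals left out. For CSPG5 the change was 2.26 by both edgeR and DESeq2 from NP to MT. From MT to LT it was -3.65 with square-root TPM, -3.54 with a pseudocount of 0.1, -3.49 with edgeR and -3.50 with DESeq2, and from NP to LT -1.53 and -1.48 with the first 2 of these. With each animal left out, SCXB ranged from -1.25 to 0.29 from NP to MT, from -3.10 to -2.78 from MT to LT and from -4.22 to -2.68 from NP to LT. With edgeR it was -1.14 from NP to MT and -4.33 from NP to LT, with DESeq2 -1.14 and -4.33, and with square-root TPM -0.88 and -4.28.

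The number of genes called was 2342 from NP to MT, with 1099 to 4202 over the animals left out, and 3723 from MT to LT, with 1944 to 5354. The extremes were without MT replicate 3 (1099), NP replicate 1 (4202 and 5354) and MT replicate 2 (1944). From NP to LT it was 6718, with 5279 to 7794. With the replicate number as a block these were 1577, 1693 and 5448. The numbers do not mark shared animals, and deviations of animals with the same number had correlations from -0.287 to 0.254. Of 76 called changes of 44 named list genes, 54 were called in every alternative, 22 were lost in at least 1 and none was reversed. These hold changes of genes that passed the filter through 1 stage alone, among them LECT1, FGF18, POSTN and HAS3. The filter in part fixed their direction, so the tally is a description and no support for them. The counts of called list genes were within 1.5 times in 418 of 510 cases. The ratio of ACAN to VCAN was not run, since ACAN was not analysed. With 3 or 4 animals a group, and with under 100 reads for SCXB, HAPLN1 and CSPG5 in some animals, small changes of these genes were not detectable.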
